A study of Mus musculus with 2 samples.

Results

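Platelet-bearing neutrophils are taken here as cell barcodes that hold the transcripts of a neutrophil together with a set amount of platelet RNA. They numbered 1104 of the 27933 barcodes in 2 single-cell libraries of mouse blood, 293 in the library from young mice (2 months) and 811 in that from old mice (24 months). A member had at least 200 genes, at most 20% mitochondrial UMIs and at least 2500 UMIs (unique molecular identifiers, 1 for each captured RNA molecule). At least 3% of its UMIs came from S100a8 and S100a9, the calprotectin subunits that fill neutrophil cytosol, and it had at least 1 UMI of Csf3r, the receptor for granulocyte colony-stimulating factor. It also had at least 10 UMIs in sum of 6 platelet genes, Pf4, Ppbp, Itga2b, Gp9, Gp1bb and Clec1b. The first 2 encode chemokines of the alpha granule, Itga2b the alpha chain of the fibrinogen receptor, Gp9 and Gp1bb subunits of the von Willebrand factor receptor, and Clec1b the receptor CLEC-2. The comparison cells passed the same neutrophil limits and held 0 or 1 UMI of the 6 genes, 7744 young and 6285 old cells. Members were thus selected on the UMIs of the 6 platelet genes, S100a8, S100a9 and Csf3r and on depth, so these levels are given as a description.

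Platelets are anucleate fragments of megakaryocytes that carry megakaryocyte-made RNA. In blood they attach to neutrophils, first through P-selectin on the activated platelet and PSGL-1 on the neutrophil, then through platelet glycoprotein Ib and the neutrophil integrin Mac-1. A barcode with both kinds of transcript can hold a neutrophil with attached or ingested platelets, a neutrophil and a loose platelet caught together, or a neutrophil with free platelet RNA. These cannot be told apart in counts.

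The study set blood leukocytes of young against those of old mice, both labelled male, with no gene deletion and no drug in either group. After red cell lysis, the sort took live cells positive for CD45, CD11b and Ly6G (surface antigens that mouse neutrophils carry together), and the labels name BD Rhapsody as the capture system. The deposited matrices carry a Cell Ranger header, and the sources used here do not explain how that goes with the named system. There is 1 library per age, and the labels do not state how many mice it pools, so no difference has a replicate check and no p-value is given. Intervals are 95% exact Poisson intervals for summed counts and exact Clopper-Pearson intervals for shares, and both cover counting error only. The median depth was 4246 UMIs per young and 7265.5 per old barcode, and 53 barcode sequences occurred in both, carried by 3 young and 4 old members and by 0 members in both.

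The promoters of the rule genes were set beside the megakaryocyte factor GATA1, whose transcript is described further on. GATA1 binds the letters AGATAA, with T allowed as the first letter and G as the last; these forms were searched for on both strands in the 250 bases before each gene's start, from RefSeq on GRCm38.p6. Among the rule genes, 2 of 6 held such letters, and their windows are printed because they are the only matches; the motif, or its reverse complement, is in capitals.
Gp1bb, chr16:18622404-18622653, minus strand: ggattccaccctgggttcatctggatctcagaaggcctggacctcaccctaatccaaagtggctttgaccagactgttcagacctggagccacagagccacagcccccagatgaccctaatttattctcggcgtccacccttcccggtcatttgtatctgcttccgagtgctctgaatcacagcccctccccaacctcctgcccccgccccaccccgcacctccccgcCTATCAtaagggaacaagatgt
Clec1b, chr6:129397047-129397296, plus strand: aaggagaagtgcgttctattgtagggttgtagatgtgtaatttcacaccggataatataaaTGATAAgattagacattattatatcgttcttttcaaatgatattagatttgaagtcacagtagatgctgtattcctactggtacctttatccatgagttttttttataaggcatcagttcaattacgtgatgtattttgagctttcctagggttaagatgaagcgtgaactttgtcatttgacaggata
The match began 22 bases before the start of Gp1bb and 189 bases before that of Clec1b. Of the platelet genes listed outside the rule, 16 of 55 matched genes held the letters (29.1%), against 29.7% of all 27025 genes with a window. A match is a run of letters and not a measured site.

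The members made up 3.18% of the gated neutrophils of the young library (293 of 9226, interval 2.83 to 3.55%) and 8.07% of those of the old library (811 of 10046, interval 7.55 to 8.62%). The old share was 2.54 times the young one, and 1.57 times it with members set at 0.2% of UMIs. The 10-UMI limit is absolute, and the old cells were deeper, so each cell was also thinned at random to 2500 UMIs. At that depth 1.51% of the young gate (139 cells, interval 1.27 to 1.78%) and 2.46% of the old gate (247 cells, interval 2.16 to 2.78%) still held 10 UMIs of the 6 genes. With 5 UMIs asked for, the thinned shares were 3.60 and 5.92%. The old library was above the young one at both limits, by a smaller factor than without thinning.

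Platelet UMIs declined across the limit, and every number of UMIs up to 40 was held by some gated cells of both libraries. In the young library 73 cells held 8 or 9 UMIs and 49 held 10 or 11, and in the old library 215 and 164 cells did. Members had a median of 17 UMIs of the 6 genes in the young library (range 10 to 186) and of 18 in the old one (range 10 to 1761). Cells with at least 50 such UMIs numbered 32 and 92. The class is therefore read as a range of platelet content set by its limit.

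**Figure D1:**
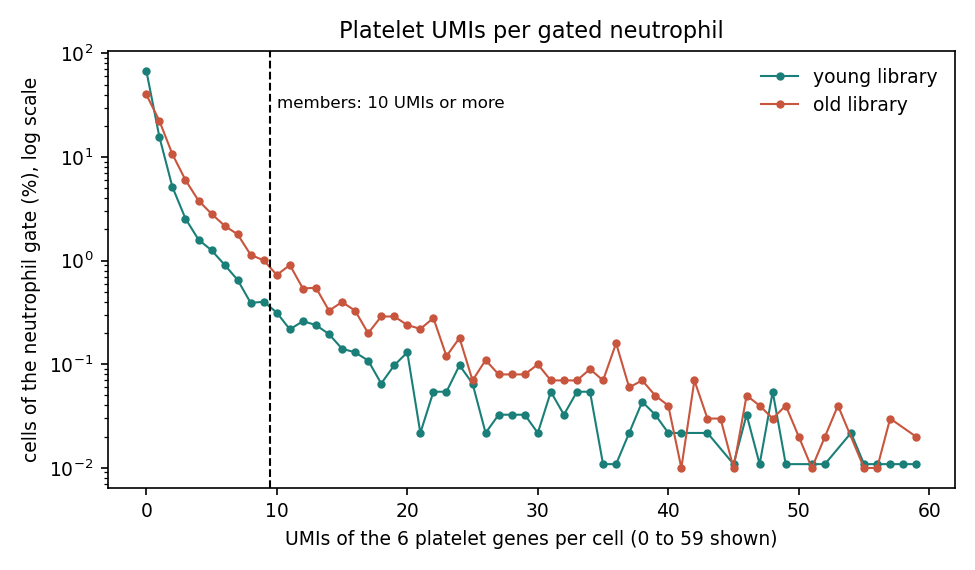
Share of gated neutrophils (percent, log scale) at each number of UMIs of the 6 platelet genes, for the young and the old library; the dashed line marks the limit of 10 UMIs. Both curves decline across the limit, unevenly from number to number, and the old library lies above the young one around the limit, where 8 or 9 UMIs were held by 73 young and 215 old cells.

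Free RNA and cells caught together give platelet UMIs to any barcode, so lymphocytes of the same libraries were read in the same way. Of the B, T and NK cell barcodes without Csf3r, 6 of 323 (1.86%, interval 0.685 to 4.0%) of the young library and 2 of 226 (0.885%, interval 0.107 to 3.16%) of the old reached 10 UMIs, at median depths of 6457 and 7227 UMIs. The gated neutrophils had the shares given above, at medians of 4241 and 7576 UMIs in the comparison cells. Before depth was matched, the young share of 3.18% thus lies inside the lymphocyte interval, and the old share of 8.07% lies above it. Thinned to 2500 UMIs, 0.619% of young (interval 0.0751 to 2.22%) and 0.442% of old lymphocytes (interval 0.0112 to 2.44%) held 10 UMIs. The gated shares at that depth, 1.51 and 2.46%, lay inside the young interval and just above the old one. With 5 UMIs asked for, 2.17 and 0.885% of thinned lymphocytes passed, against 3.60 and 5.92% of gated cells. After thinning, at least 1 UMI of the 6 genes was seen in 23.1% of young and 36.0% of old gated neutrophils, against 9.91 and 15.0% of lymphocytes. Classical monocyte barcodes of the old library reached 10 UMIs in 13 of 139 cases (9.35%, interval 5.07 to 15.5%), at a median of 13603 UMIs. After thinning, 25.2% of them held at least 1 UMI and 7.91% at least 5, against 36.0 and 5.92% of old gated neutrophils. Non-classical monocyte barcodes of the old library reached 10 UMIs in 2 of 120 cases (1.67%, interval 0.202 to 5.89%). The markers that picked the classical monocytes included F13a1, which platelets also make, so nothing is read from their share.

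Each of the 6 rule genes contributed to the members to a different degree. Pf4 was detected in 291 of 293 young and 809 of 811 old members, at 2189 CPM (counts scaled to a total of 1000000 UMIs, after summing over cells; interval 2120 to 2260) and 1373 CPM (interval 1348 to 1399). Ppbp was seen in 272 and 765 members, Clec1b in 250 and 601, Itga2b in 240 and 591 and Gp9 in 181 and 561. Gp1bb, the sparsest, was seen in 104 young (35.5%) and 458 old (56.5%) members. The limit was thus reached mostly through the 2 chemokines, which have mean counts of 12.9 and 6.26 UMIs per young member and 14.0 and 9.01 per old member.

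A further 3 platelet markers that the rule did not use were also held by the members. Nrgn, neurogranin, a calmodulin-binding protein abundant in platelets, stood at 1315 CPM in young members (interval 1261 to 1370) against 35.6 in the comparison cells and 16179 in platelet barcodes. The old members had 588 CPM (interval 572 to 605) against 24.5 and 10104. Platelet barcodes, 262 young and 454 old, are barcodes with at least 2% of UMIs from the 6 genes, under 3% from S100a8 and S100a9 and no Csf3r. Nrgn was detected in 97.3% of young and 90.8% of old members, against 11.2 and 15.5% of the comparison cells. Members thus lay between the comparison cells and the platelet barcodes in both libraries.

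Tsc22d1, a leucine zipper protein, stood at 927 CPM in young members against 12.8 in comparison cells, and at 286 against 9.15 CPM in old ones. Clu, clusterin, an alpha granule cargo protein, stood at 214 against 4.87 CPM and at 136 against 5.79 CPM. It was detected in 60.1% of young and 58.3% of old members. The markers for the label were therefore all present, with Clu the least often seen.

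Surface receptors came next among the platelet genes outside the rule. The ratio of members to comparison cells is given as log2 with 1 CPM added to both, and a gene is called higher or lower where it passed 1.5-fold in both libraries. Of all 6058 genes at a mean of at least 10 CPM over the 4 sums, 4.01% were called higher (243 genes) and 0.066% lower (4 genes); the rule used this contrast, so nothing is read from these shares. Of 19 listed receptors and adhesion molecules, 14 passed the floor and 12 were called higher. A gene absent from neutrophils can pass that floor only through its level in the members, so the count is a description of those that passed. Gp5, a subunit of the von Willebrand factor receptor complex, stood at 163 CPM (interval 145 to 183) against 0.878 in the young library. In the old library it stood at 62.4 CPM (interval 57.2 to 68.1) against 0.967, and the log2 ratios were 6.45 and 5.01. Treml1, a receptor stored in alpha granules, stood at 145 against 2.42 CPM and at 148 against 3.20 CPM.

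Gp6, the collagen receptor, was at 69.7 CPM in young and 37.1 CPM in old members, with under 1 CPM in the comparison cells of both. Gp1ba, the chain that binds von Willebrand factor, was at 44.1 and 17.1 CPM. Both were thus low but far above the platelet-poor cells. Selp, P-selectin, was among the 2 receptors not called, at 13.3 CPM in young members (interval 8.46 to 20) against 11.6, and at 20.6 CPM in old members (interval 17.6 to 23.9) against 12.9. P2ry12, the ADP receptor, was the other, at 190 against 130 CPM and at 71.6 against 45.0 CPM. Platelet barcodes held Selp at only 68.0 and 107 CPM.

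Of 13 listed granule cargo genes, 6 passed the floor and all 6 were called higher, where 4.01% of all genes were. As for the receptors, genes absent from neutrophils passed the floor only through the members, so this count is a description. Thbs1, thrombospondin, was at 451 against 17.9 CPM in the young and 206 against 11.7 CPM in the old library. Vwf, von Willebrand factor, was at 127 against 3.40 CPM and at 75.5 against 1.97 CPM. Mmrn1, multimerin, which binds factor V, was at 85.9 against 1.06 CPM and at 30.7 against 0.616 CPM. Every one of these 3 was lower in old than in young members. Members were set by an absolute limit in cells of unlike depth, so this is not read as a change with age. Young and old platelet barcodes held Thbs1 at 3435 and 3907 CPM, Vwf at 1065 and 1246 CPM and Mmrn1 at 690 and 546 CPM.

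Signalling proteins and enzymes were called higher for 15 of 19 measured genes, where 4.01% of all genes were, with the same limit from the floor. Alox12, platelet 12-lipoxygenase, was at 317 against 3.32 CPM in the young and 159 against 3.71 CPM in the old library. Slc6a4, the serotonin transporter that loads platelets, was at 88.8 against 0.479 CPM and at 62.6 against 1.20 CPM. The 4 that were not called, Rgs18, Tbxas1, Bin2 and Rap1b, were all transcribed in the comparison cells too. Rap1b, a GTPase of integrin activation, was at 997 against 685 CPM in the young and 586 against 456 CPM in the old library.

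Cytoskeletal genes were called higher for 8 of 14 measured, where 4.01% of all genes were, again with that limit. Tubb1, the tubulin of the platelet marginal band, was at 39.5 against 1.12 CPM in the young and 15.9 against 0.422 CPM in the old library. Myl9, a myosin light chain, was at 255 against 6.60 CPM and at 263 against 10.8 CPM. Parvb, beta-parvin, was at 230 against 2.85 CPM and at 127 against 3.64 CPM. The 6 not called were Tln1, Vcl, Zyx, Actn1, Flna and Lims1, all above 90 CPM in the comparison cells of both libraries.

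Over the 4 lists together, 53 of 69 genes passed the floor, 41 were called higher, 0 lower and 12 neither. Their median log2 ratio was 3.92 for the young library and 3.08 for the old, against -0.03 and 0.13 over all 6058 genes. Of all 6058 genes, 4.01% were called higher. The members were chosen on platelet genes and the floor includes their levels, so these counts and medians are a description only. Outside the lists, Tubb2a, Cald1, Cavin2 and Tpm2 were among the 12 named genes with the largest ratios. Tpm2, a tropomyosin, was at 41.8 against 0.293 CPM in the young and 75.7 against 1.23 CPM in the old library, so that its level was higher in old than in young members.

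**Figure D2:**
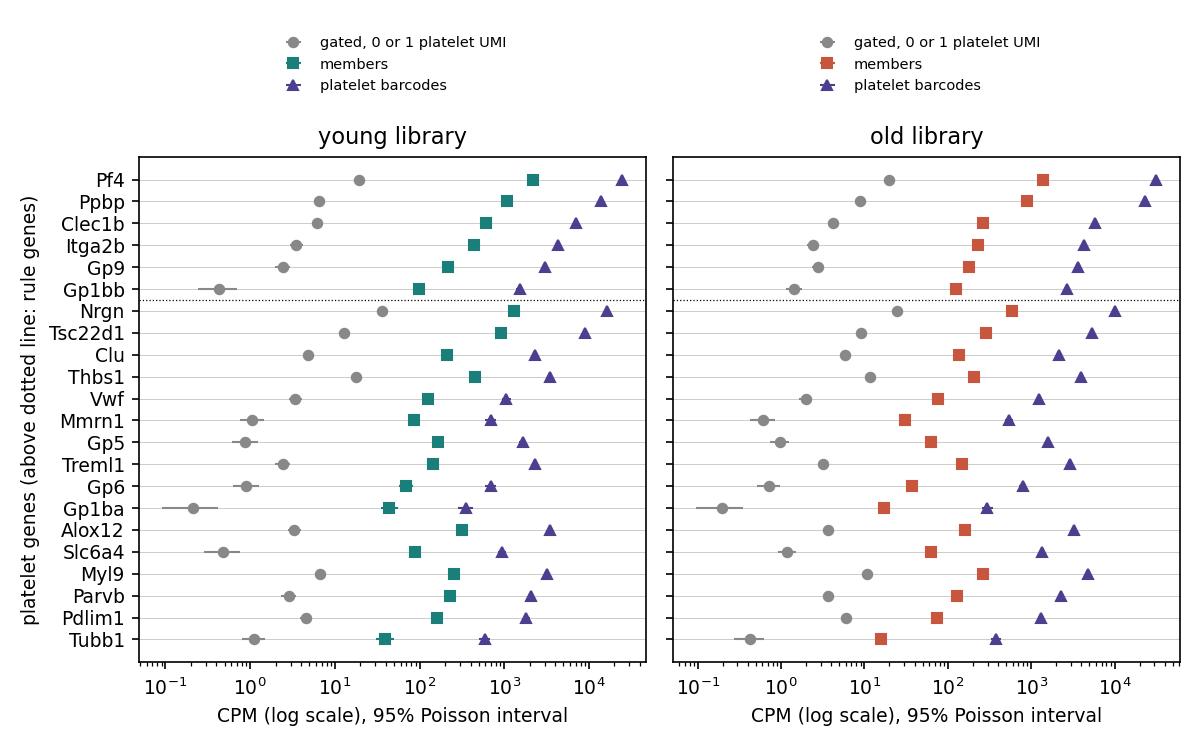
Level of 22 platelet genes in CPM (log scale, 95% Poisson intervals) in comparison cells with 0 or 1 platelet UMI, in members and in platelet barcodes, for each library; genes above the dotted line chose the members. Members lie between the other 2 kinds of barcode for every gene drawn, as for Nrgn at 35.6, 1315 and 16179 CPM in the young library.

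Megakaryocyte transcription factors were hardly seen. Of 11 listed, 6 passed the floor and 0 were called higher or lower in both libraries. Of all genes 4.01% were called higher and 0.066% lower, and a count of 0 among 6 is near those shares. Gata1, under the floor, was detected in 6.83% of young members at 12.8 CPM (interval 8.0 to 19.3) against 0.106, and in 2.34% of old members at 3.13 CPM (interval 2.05 to 4.59) against 0.0879. Platelet barcodes held it at 143 and 81.0 CPM. Tal1, its partner, was at 26.1 against 3.88 CPM in the young and at 4.82 against 1.30 CPM in the old library. Nfe2, which neutrophils also transcribe, was at 173 against 110 CPM and at 130 against 127 CPM.

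The genes called higher in the members were nearly all genes of platelet barcodes. Both kinds of barcode were chosen on the same 6 genes, which were themselves called higher, so this overlap is a description only. Of the 243, 230 (94.7%) were at least 5-fold higher in platelet barcodes than in comparison cells in both libraries, as were 319 of all 6058 genes (5.27%). The other 13 were Arl5a, Snx5, Cd93, Prcp, Polr2l, Manf, Mprip, Ly86, Lgals1, H2-DMa, Ms4a6b, Ms4a6d and mt-Nd4. Lgals1, galectin-1, was at 25.5 against 11.8 CPM in the young and 50.2 against 19.9 CPM in the old library, with 17.0 and 27.6 CPM in platelet barcodes. Ly86, the partner of the receptor RP105, was at 20.9 against 12.1 CPM and at 28.1 against 11.9 CPM, with under 7 CPM in platelet barcodes of both libraries. With members set at 0.2% of UMIs in place of 10 UMIs, 1 of the 13 was still called higher and 5 were lower in both libraries; Lgals1 then had log2 ratios of -1.51 and -0.51 and Ly86 of -0.99 and -1.17.

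The 1 gene left was Cd93, a surface glycoprotein of myeloid and endothelial cells. It was at 22.6 CPM in young members against 9.87 in comparison cells and at 25.4 against 10.3 CPM in the old library, with 44.2 and 99.9 CPM in platelet barcodes. Its log2 ratios were 1.12 and 1.23, and 1.02 and 1.06 at the 0.2% limit. Cd93 was called higher under 16 of the 17 alternatives; the exception was the floor of 50 CPM, which its level does not reach.

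**Figure D3:**
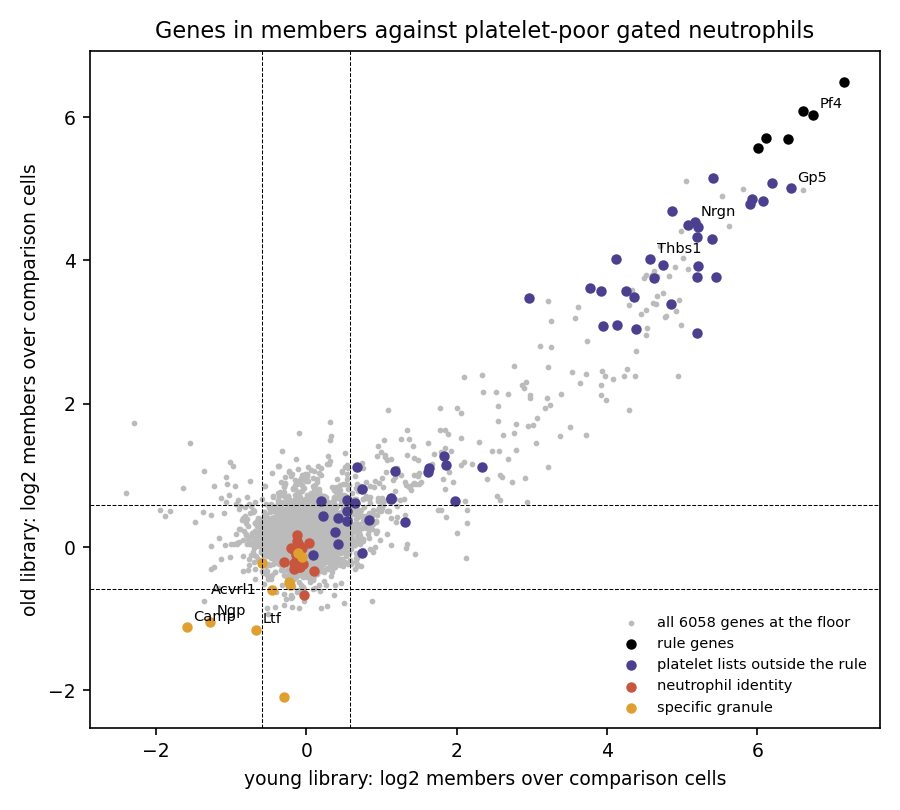
Log2 ratio of members to comparison cells for each of 6058 genes, young library on the x axis and old library on the y axis, with 1.5-fold limits dashed and 4 gene groups in colour. Platelet genes run out along the diagonal, as Pf4 at 6.74 and 6.03, while neutrophil identity genes sit near 0 and Camp, Ngp and Ltf lie below.

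The amount of platelet RNA was put in terms of a platelet profile. For each listed platelet gene outside the rule with at least 100 CPM in platelet barcodes and 5 times the comparison level, the excess in the members was divided by the excess in platelet barcodes. The median over 53 genes was 9.08% of member UMIs in the young library (quartiles 7.66 and 10.9%, range 6.02 to 16%). The median over 54 genes of the old library was 5.07% (quartiles 4.51 and 5.68%, range 2.31 to 8.26%). The genes thus gave shares within a few-fold of each other, and the old share was the lower one. That gap depended on the limit: with members set at 0.2% of UMIs the shares were 10.4 and 9.81%, with members set after thinning 14.3 and 12%, and in the class with 0.1 to 1% granule UMIs 6.71 and 6.17%. The old value moved by over 1.5 times under the first 2 of these settings. At means of 5880 and 10228 UMIs per member these shares amount to 534 and 519 UMIs, beside a median of 805.5 and 863 UMIs in a platelet barcode, where the files hold no barcode under 500 UMIs.

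With that share of the platelet profile added to the comparison cells, 11 genes were called higher in members in both libraries and 3 lower. Those higher were Cd93, Prcp, Ifi30, Ly86, Nt5dc2, Lgals1, H2-DMa, Ccny, Cd74, Ms4a6b and Ms4a6d. Without the cells that hold monocyte markers, an alternative chosen after seeing the data, 2 of the 13 genes named above, Cd93 and Mprip, were still called higher than in comparison cells. The 3 lower genes were Camp, Ngp and Acvrl1.

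Mitochondrial content also lay between the kinds of barcode. Its median was 0.312% of UMIs in young members against 0.157% in comparison cells and 1.72% in platelet barcodes. The medians of the old library were 0.807, 0.638 and 2.80%. Members also had more UMIs than the comparison cells, 4918 against 4241 in the young and 7995 against 7576 in the old library.

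Neutrophil identity genes of the members lay close to the level of the comparison cells, unlike some specific granule genes described further on. Of 18 such genes outside the rule, all were measured, with median log2 ratios of -0.13 and -0.07. In both libraries 0 were called higher or lower, where 4.01% of all genes were called higher and 0.066% lower. A count of 0 among 18 is near those shares. Cxcr2, the receptor that draws neutrophils to CXC chemokines, was at 1534 CPM (interval 1476 to 1594) against 1641 in the young library and at 955 CPM (interval 934 to 976) against 936 in the old one. It was detected in 99.0% of members of both libraries. Ly6g, the sorting antigen, was at 91.1 against 112 CPM and at 823 against 956 CPM, and was detected in 22.2% of young and 83.5% of old members, close to the 21.9 and 84.4% of comparison cells. The rule genes S100a8 and S100a9 together made up a median of 8.93% of UMIs in young members against 10.2%, and 21.9% against 26.1% in the old library.

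Neutrophil receptors for platelets were measured for 10 of 12 listed genes, and 1 was called higher, where 4.01% of all genes were. Selplg, which encodes PSGL-1, was at 1116 CPM (interval 1067 to 1167) against 1204 in the young library and at 799 CPM (interval 780 to 819) against 752 in the old one. Itgam, the Mac-1 alpha chain, was at 654 against 676 CPM and at 523 against 598 CPM. Itgb2, its beta chain, was at 444 against 418 CPM and at 383 against 392 CPM. These differences were under 1.2-fold and did not share a direction between libraries, except that Itgam was lower in both.

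F11r, the junctional adhesion molecule A, was the gene called higher, at 25.5 CPM (interval 18.6 to 34.3) against 3.46 in the young and 20.7 CPM (interval 17.8 to 24.1) against 9.81 in the old library. Platelet barcodes held F11r at 160 and 126 CPM. Over the platelet mixture its log2 ratios were 0.51 and 0.38, under the 1.5-fold limit.

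Gene groups of neutrophil activation were read next. Among 14 immediate early genes, 11 cytokine and NF-kB response genes, 10 genes of extracellular traps and the inflammasome and 8 genes of circulation-aged neutrophils, 0 were called in either direction in both libraries, where 4.01% of all genes were called higher and 0.066% lower. A count of 0 in lists this short is near those shares. Il1b was at 2615 CPM (interval 2539 to 2692) against 2756 in the young and 1644 CPM (interval 1617 to 1672) against 1484 in the old library. Cxcr4, a receptor of bone marrow homing, was at 421 against 423 CPM and at 141 against 151 CPM.

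Interferon-stimulated genes were called higher in both libraries for 1 of 16 measured, Ifi47, an immunity-related GTPase. It was at 31.3 against 14.6 CPM in the young and 15.7 against 5.98 CPM in the old library, and at 129 and 176 CPM in platelet barcodes. In the young library alone, 4 passed 1.5-fold, where 6.26% of all genes did, and in the old library 1 did, where 7.61% of all genes did. Ifit1 was at 125 CPM (interval 109 to 143) against 65.3 in the young library, with 258 CPM in platelet barcodes, and at 17.2 against 14.9 CPM in the old one. Rsad2 was at 255 against 164 CPM and Ifit3 at 84.7 against 52.3 CPM in the young library, with 44.2 and 27.2 CPM in platelet barcodes. In the 0.1 to 1% granule class alone the young log2 ratio was 0.27 for Ifit1 and 0.15 for Ifi47, under the limit. Whether the libraries differ in this was not tested.

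Specific granule genes, which neutrophils transcribe while they mature in the marrow, held 3 of the 4 genes called lower. Of 12 measured, 3 were called lower and 0 higher, where 0.066% of all genes were called lower, with median log2 ratios of -0.30 and -0.57. In the old library Ngp was at 4232 CPM (interval 4188 to 4277) against 8716, Camp, cathelicidin, at 2109 CPM (interval 2078 to 2141) against 4593, and Ltf, lactoferrin, at 1203 CPM (interval 1180 to 1227) against 2677. Their log2 ratios were -1.04, -1.12 and -1.15. The share of cells with a UMI did not fall with the level: Camp was detected in 77.1% of old members and 74.4% of comparison cells.

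In the young library these genes rested on few cells. Camp was at 110 against 332 CPM, but its UMIs came from 15 members, and 10 UMIs were left without the 5 cells that held the most. Ltf, at 99.8 against 159 CPM, came from 8 members with 3 UMIs left, and Ngp, at 231 against 561 CPM, from 38 members with 47 UMIs left. The young values therefore describe a handful of cells. With comparison cells weighted to the members' depth and granule classes, the old log2 ratios were -0.67 for Camp, -0.60 for Ngp and -0.70 for Ltf, past 1.5-fold but smaller. The granule classes of that weighting are made from these genes, so nothing is read from the smaller values. With members set at 0.2% of UMIs in place of 10 UMIs the old log2 ratios were -2.63 for Camp, -1.98 for Ngp and -2.12 for Ltf, and with members set after thinning -1.79, -1.70 and -1.47. Acvrl1, a type I receptor for TGF-beta family ligands, was the fourth gene called lower, at 55.8 against 94.5 CPM in the old library and, from 3 counts in young members, at 1.74 CPM (interval 0.359 to 5.09) against 6.01.

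Members were split by the summed share of 6 granule genes (Ltf, Camp, Ngp, Chil3, Ifitm6 and Lcn2) to see where they lay. Among old members 30.5% were in the class with at least 1% of UMIs (interval 27.3 to 33.8%), against 41.6% of comparison cells. At 5000 to under 10000 UMIs per cell, members were 9.83% of the 0.1 to 1% class (interval 8.79 to 10.9%) and 5.58% of the class at 1% or more (interval 4.43 to 6.91%). At 10000 UMIs or more the shares were 16.5% (interval 13.9 to 19.3%) and 6.39% (interval 5.47 to 7.41%). At 2500 to under 5000 UMIs they were 6.23% (interval 5.22 to 7.37%) and 4.73% (interval 1.92 to 9.50%). The 0.1 to 1% class thus had the larger share at the deeper ranges, with intervals apart, while the intervals overlapped at the shallowest. Old cells under 0.1% were few, and 15 of 149 were members (10.1%, interval 5.74 to 16.1%).

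The young library had few cells at 1% or more, so its lower classes were compared. At 5000 to under 10000 UMIs, members were 6.34% of the class under 0.1% (interval 4.90 to 8.04%) and 3.81% of the 0.1 to 1% class (interval 2.81 to 5.03%). At 2500 to under 5000 UMIs they were 2.77% (interval 2.28 to 3.34%) and 1.86% (interval 1.38 to 2.45%). At 10000 UMIs or more they were 7.19% (interval 3.77 to 12.2%) and 5.88% (interval 2.86 to 10.6%). The class with less granule RNA thus had the larger share at each depth. The intervals overlapped widely at 10000 UMIs or more and slightly at the shallower depths. In the old library a different pair of classes was compared. Depth moved with the share: over all classes it was 2.40, 4.84 and 6.30% from the shallowest to the deepest young cells and 6.28, 8.53 and 8.71% among old cells.

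**Figure D4:**
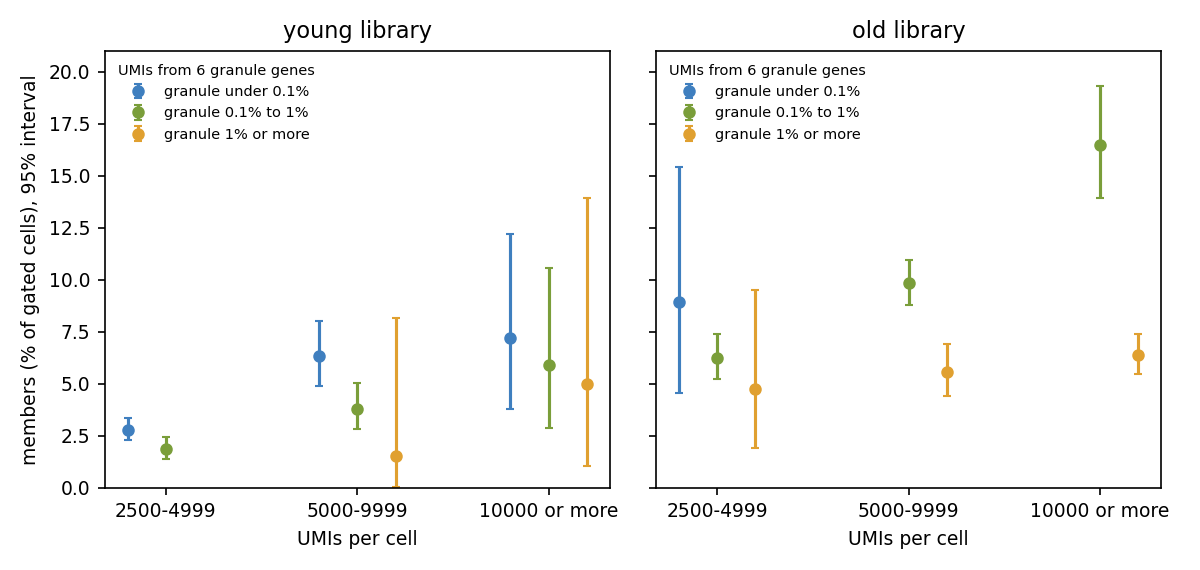
Members as a percent of gated neutrophils in each depth class (x axis, UMIs per cell) and granule class (colour), with 95% Clopper-Pearson intervals, for each library; classes under 50 cells are not drawn. In the old library the 0.1 to 1% class lies above the class at 1% or more at 5000 to under 10000 UMIs (9.83 against 5.58%) and at 10000 or more (16.5 against 6.39%).

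Markers of other cell types were read in the members as well. Of 7 classical monocyte markers, all measured, 5 were higher by 1.5-fold in the old library, where 7.61% of all genes were. In both libraries 1 was, F13a1, where 4.01% of all genes were. F13a1, the factor XIII A chain made by platelets and monocytes, was at 20.3 against 5.19 CPM in the young and 140 against 35.8 CPM in the old library, and at 173 and 617 CPM in platelet barcodes. Ccr2 was at 91.7 CPM (interval 85.3 to 98.5) against 41.2 in the old library, Vcan at 52.0 against 20.9 CPM and Ms4a6c at 105 against 44.1 CPM. In the young library Ccr2 was at 10.4 against 9.31 CPM and Ms4a6c at 19.2 against 21.1 CPM.

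At least 3 UMIs of Ccr2, Ms4a6c, Vcan and Fn1 were held by 81 of 811 old members (9.99%, interval 8.01 to 12.3%) and by 234 of 6285 old comparison cells (3.72%, interval 3.27 to 4.22%). In the young library 2 of 293 members (0.683%) and 72 of 7744 comparison cells (0.930%) did. The direction in the old library depended on the limit: with membership set at 0.2% of UMIs in place of 10 UMIs, the log2 ratio was -0.70 for Ccr2, -0.94 for Vcan and -1.18 for Ms4a6c. The summed level of the list was 307 against 298 CPM in the young and 994 against 839 CPM in the old library, and each of the 7 markers was detected in the members and comparison cells of both libraries.

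Erythroid markers, of which 5 of 10 passed the floor, summed to 3115 against 10535 CPM in the young library and 13055 against 9054 CPM in the old one. The median young member nevertheless held 9 of these UMIs and the median comparison cell 6, so the young sum turned on few cells. B cell markers summed to 205 against 191 CPM in the young library and 74.4 against 65.6 CPM in the old. T cell markers summed to 26.1 against 35.1 CPM and to 35.2 against 17.7 CPM, and NK cell markers to 118 against 69.3 CPM and to 14.7 against 6.74 CPM. The NK sums were above those of comparison cells in both libraries, the T cell sum in the old library only, and the young B cell sums had overlapping intervals. An NK marker UMI was held by 8.19% of young members and 7.76% of young comparison cells, and by 5.43 and 3.31% in the old library. At least 3 such UMIs were held by 0.341% of young members and 0.284% of young comparison cells, so the young NK sum also turned on few cells. Dendritic cell markers summed to 7.55 against 6.97 CPM and to 7.96 against 3.31 CPM, and non-classical monocyte markers to 99.3 against 124 CPM and to 110 against 89.9 CPM. Basophil and eosinophil markers summed to 34.8 against 14.9 CPM in the young library and to 8.08 against 6.58 CPM in the old, with 170 and 96.5 CPM in platelet barcodes. The part of these cell types in the results was not tested.

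Between the ages, 637 genes were higher by 1.5-fold in old than in young members (10.5% of 6058) and 2271 were lower (37.5%). The median gene was shifted by -0.40 on the log2 scale in members and by -0.50 in comparison cells. Over the 2629 genes at 50 CPM or more the median shift in members was -0.50, and relative to that value the split was 1503 higher and 657 lower, so the balance of directions follows the scaling. S100a8 and S100a9 made up more of the UMIs in old members, 21.9 against 8.93% at the median. With a total without these genes and without mitochondrial, ribosomal protein and platelet-list genes, the counts were 1082 higher and 1470 lower.

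Platelet genes were compared between the ages within the members and within platelet barcodes. For 277 genes high in platelet barcodes, the old to young log2 ratio of the members' excess over comparison cells had a median of -1.05, and that of platelet barcodes a median of -0.29. Members were set by an absolute limit in cells of unlike depth, so the value of -1.05 is not read as a change with age. Across these genes Pearson's r was 0.73 and Spearman's rho 0.71, a description only, since genes are not independent replicates and both ratios come from the same 2 libraries. Both ratios lay above their medians for 106 genes and below for 105. Genes with a higher old to young ratio in platelet barcodes thus mostly had a higher one in the members too.

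Tpm2 was at 677 CPM in young and 2240 CPM in old platelet barcodes, a log2 ratio of 1.73, and its excess in members had one of 0.84. Gp1bb, at 1530 and 2705 CPM in platelet barcodes, had log2 ratios of 0.82 and 0.36. Both had a larger excess in old than in young members, whereas Ppbp, at 14050 and 23165 CPM in platelet barcodes, had 0.72 there and -0.28 in members. Nrgn had -0.68 in platelet barcodes and -1.18 in members, and Tsc22d1 -0.77 and -1.72. Ormdl3, a regulator of sphingolipid synthesis, was lowest of those named, with -2.23 and -3.31, from 922 to 196 CPM in platelet barcodes.

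**Figure D5:**
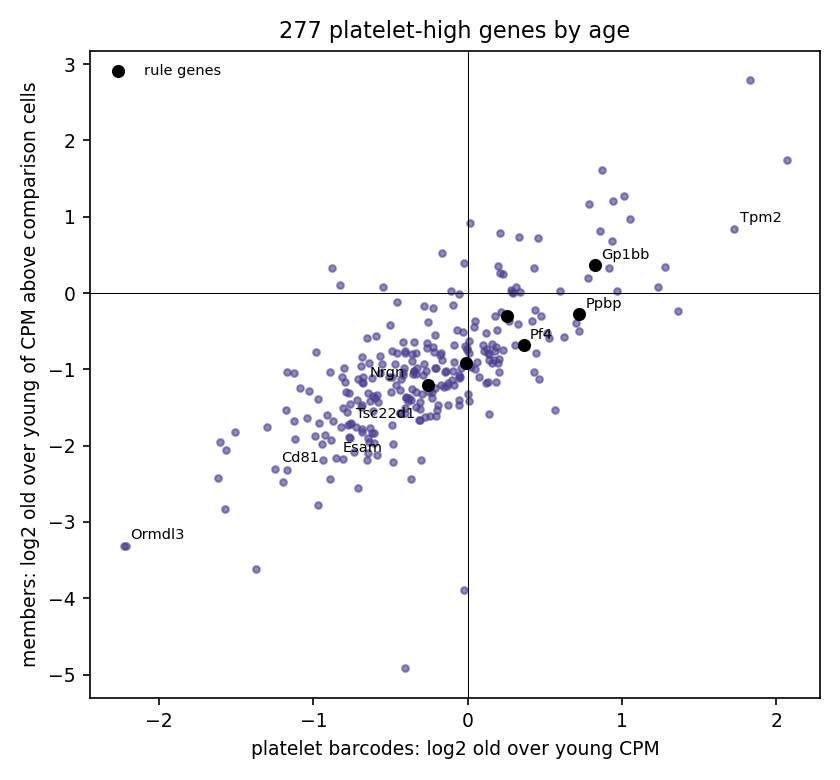
Log2 old over young ratio for 277 genes high in platelet barcodes, with platelet barcodes on the x axis and the members' CPM above comparison cells on the y axis; black points are genes that chose the members. The points run along a rising band (Pearson's r 0.73 across genes) with most of it below 0 on the y axis, where the median is -1.05.

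The ratio of members to comparison cells was also set side by side for the genes that differed most between the libraries. Esam, an adhesion molecule of platelets and endothelium, was at 60.9 against 0.692 CPM in the young and 14.3 against 0.932 CPM in the old library. Cd81, a tetraspanin, was at 110 against 10.9 CPM and at 36.2 against 16.1 CPM. Gclm, a subunit of the enzyme that starts glutathione synthesis, was at 179 CPM in young and 180 CPM in old members, but at 22.4 and 116 CPM in the comparison cells. The summed level of Gclm thus differed between the libraries in the platelet-poor cells and hardly in the members. Its excess in members over comparison cells did differ, at 156 CPM in the young and 64.6 CPM in the old library. Platelet barcodes held Gclm at 1823 and 1345 CPM.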

How the data were processed

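The authors deposited raw counts: UMIs of each gene in each barcode of 2 libraries. Cell Ranger 7.2.0 made them, per the file headers, on the build mm10, per the submitters' processing notes; the annotation release and how cells were called are not given in the sources used here. The files list 32285 genes and hold no barcode under 500 UMIs. The 6 platelet genes, the gene lists and the members were chosen with earlier results of these data known. Counts were summed over the cells of each kind and library and scaled to CPM over all genes (pandas 2.3.3, scipy 1.17.1 and numpy 2.4.6 under Python 3.11.15); there is 1 library per age, so no test was run. Log2 ratios had 1 CPM added, and calls needed 1.5-fold in both libraries at a mean of at least 10 CPM. The calls and the platelet-profile share were tested on simulated counts with 200 changed genes. Thinning drew 2500 UMIs per cell once without replacement (seed 7); 798 young and 1028 old kept barcodes were shallower. No doublet caller was run, since members hold transcripts of 2 kinds of cell by their definition; an alternative left out cells with lymphocyte or erythroid markers.

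Named genes were the 12 of highest and the 12 of lowest ratio in both libraries at 50 CPM or more in the members of either library, the 6 at each end of the difference between libraries, up to 4 of each of 23 lists, and 20 fixed names; without rule genes in the first parts, mitochondrial, ribosomal protein, haemoglobin, immunoglobulin, T cell receptor and unnamed genes. Other genes in the text were named because a count was spelled out, after their values were seen. Alternatives numbered 17, of which 3 were chosen after seeing the data. Animals per library and the use of strand are not given in the sources used here, so reads of overlapping genes cannot be told apart.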

Additional observations from a re-analysis of the deposited data

How the results depend on the processing

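Values follow as young share, old share, young platelet-profile share and old platelet-profile share, in percent, where they moved beyond their counting interval. With 5 platelet UMIs asked for, they were 6.79, 17.0, 5.50 and 2.98, with 146 genes higher and 7 lower in both libraries. With 20 UMIs they were 1.41, 3.52, 14.5 and 8.62, with 9 genes lower. With 0.2% of UMIs the old share was 4.83, the profile shares 10.4 and 9.81, and 53 genes were lower. In cells of 5000 UMIs or more the young share was 5.05, the old profile share 4.90, and 12 genes were lower. With members set after thinning the values were 1.49, 2.64, 14.3 and 12, with 420 genes higher and 112 lower. With S100a8 and S100a9 at 10% or more the young share was 2.64 and the profile shares 7.54 and 4.67. With 3 UMIs of Csf3r the old profile share was 5.03. Without cells holding lymphocyte or erythroid markers the profile shares were 9.54 and 5.01.

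With the reduced total 9 genes were lower in members, and 1082 were higher and 1470 lower in old members. At a floor of 50 CPM, where fewer genes are tested, 25 platelet genes and 80 genes in all were higher, and 227 and 1154 differed with age. Centred on the median gene, 1503 were higher and 657 lower in old members. Over the platelet mixture 11 genes were higher. The next alternatives were chosen after seeing the data. Without cells holding monocyte markers the profile shares were 9.28 and 5.77, and 371 genes were higher in old members. Without members at 2% platelet UMIs or more they were 8.34 and 4.20. In the 0.1 to 1% granule class alone the values were 2.62, 9.44, 6.71 and 6.17. The old share of members exceeded the young one under each setting in which the shares were recomputed.

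Of 2358 single-gene values, 24 reversed; over the platelet mixture, where platelet genes centre on 0 by construction, no sign was read. Ltf in the young library had a log2 ratio of 0.39 with 20 UMIs, and Ifit3 there had -0.019 at that limit and -0.10 in cells of 5000 UMIs or more. In the old library Ccr2, Vcan and Ms4a6c had -0.70, -0.94 and -1.18 with 0.2% of UMIs and -1.19, -1.81 and -1.61 with members set after thinning. For Lgals1 the young and old values were -1.51 and -0.51 with 0.2% of UMIs and -2.71 and -1.07 after thinning; the young value was also -1.43 with 20 UMIs, -0.33 with S100a8 and S100a9 at 10% or more and -0.76 in the 0.1 to 1% granule class, and the old one -5.7e-05 without cells holding monocyte markers. For Ly86 they were -0.99 and -1.17 with 0.2% of UMIs and -0.54 and -1.25 after thinning; the young value was also -0.42 with 20 UMIs, -1.97 with S100a8 and S100a9 at 10% or more and -0.039 against the weighted comparison cells. The cause was not tested. No paired analysis between the ages was possible because there is 1 library per age, so fewer than 2 young and old pairs can be formed. Members and comparison cells were compared within each library. With 1 library per age, differences between ages and between libraries cannot be told apart, and a gene under about 10 CPM in 293 young members rests on few UMIs.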
